A study of Homo sapiens with 10 samples.

Results

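The genes of chromosome 13 were followed by their position in T47D spheroids of WT and SAMHD1 knock-out cells. T47D is a human breast cancer cell line, grown here as spheroids, and SAMHD1 is the enzyme that breaks down deoxynucleotide triphosphates. There were 10 libraries from 3 groups, all of T47D cells in spheroids. Experiments 10, 11, 15 and 16 each gave a library of WT cells and one of the SAMHD1 knock-out (KO) clone A1, and experiments 15 and 16 also gave one each of the KO clone A2. Each KO clone is a single CRISPR-Cas9-edited clone, so a difference from WT cannot be told apart from a difference between clones of the line. The labels call the experiment numbers replicates and do not say which cultures they came from, so errors measure the spread between these libraries. Experiments 10 and 11 are written as 10/11 below, and experiments 15 and 16 as 15/16.

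Of the 13920 genes in the counts, 247 lay on chromosome 13. Those with RPL or COL symbols (3 genes) and 1 further gene were left out, and the other 243 were taken, 241 of them protein-coding and 2 long non-coding. The gene table lists 338 protein-coding genes on this chromosome. The chromosome was chosen by measured values, the shift of its genes in clones A1 and A2 against WT and between the pairs of experiments. Values from those comparisons are therefore a description and carry no test. A gene is written as called where its edgeR quasi-likelihood test had a Benjamini-Hochberg adjusted p under 0.05 over all genes. The share of all genes called is given with the counts of each comparison, and nothing is read from the counts.

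Chromosome 13 is an acrocentric chromosome. Its short arm carries ribosomal RNA repeats, and its long arm is poor in genes and holds RB1, the first tumour suppressor gene to be cloned. Neighbouring genes on a chromosome can share regulatory domains or head-to-head promoters, while genes farther apart are mostly regulated on their own.

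Total counts ranged from 40077369 to 51311482 per library, and scaling factors from 0.976 to 1.045. SAMHD1 itself had 49.8 to 56.4 CPM, edgeR's measure of counts relative to the library size scaled by TMM, in the 4 WT libraries. It had 22.5 and 23.0 CPM in clone A1 of experiments 10/11, 6.44 and 6.15 CPM in clone A1 of experiments 15/16, and 23.6 and 20.2 CPM in clone A2. SAMHD1 RNA was thus lower than in WT but present in every library labelled knock-out, and its level in clone A1 differed between the pairs of experiments. Protein was not analysed here. Of 9 luminal markers 7 were measured, with PGR at 15.4 to 20.7 CPM, GATA3 at 15.4 to 24.8 CPM, FOXA1 at 14.1 to 26.8 CPM and KRT18 at 36.3 to 60.3 CPM. KRT8 had 3.10 to 9.07 CPM, ESR1 had 0.183 to 1.59 CPM and CDH1 0.684 to 2.16 CPM. KRT19 and TFF1 were looked for but were not among the genes in the counts. Of 8 markers of leukocytes, endothelium and fibroblasts, CD68 had 1.23 to 2.12 CPM and VWF 0.799 to 1.69 CPM. The other markers were looked for but were not among the genes in the counts. The authors had dropped every gene with a count of 0 in some library, so absence gives no level for a single library.

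The genes described first form 1 stretch of chromosome 13. It was the longest run of neighbouring members with a log2 fold change above 0.3 in WT of experiments 15/16 against WT of experiments 10/11, a limit set after the values were seen. The run held 22 members, from DACH1 to SPRY2, and is called the block here. It spanned 8.90 Mb, at chr13:71437966-80341126 in GRCh38. In order of position its genes included DACH1, MZT1, BORA, DIS3, PIBF1, KLF5, KLF12, TBC1D4, COMMD6, UCHL3, LMO7, KCTD12, MYCBP2, SLAIN1, EDNRB, POU4F1, OBI1, RBM26, NDFIP2 and SPRY2. The gene table places 26 protein-coding genes with a start in this span. The block took positions 157 to 178 among the 243 members, and the other 221 members lay on either side of it.

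The 250 bases before the start of 5 genes of the block are shown because these genes mark the ends of the block or the extremes of its values. DACH1 and SPRY2 are the outermost genes. POU4F1 had the largest log2 fold change of the block in clone A1 between the pairs of experiments, SLAIN1 the largest in clone A1 against WT of experiments 15/16, and LMO7 the smallest in clone A2. The sequences are from RefSeq (GRCh38.p14), in the direction of the gene, and none of their bases lies in a GENCODE exon. Capitals mark matches on either strand to any of 3 short motifs. The motif searched first was CCAAT, which is the known binding site of the transcription factor NF-Y. Next came GGGCGG, which is the known core of the GC box bound by Sp1 and related factors. Last came TATAAA, which is the sequence of a TATA box.
DACH1 (chr13:71867205-71867454, minus strand): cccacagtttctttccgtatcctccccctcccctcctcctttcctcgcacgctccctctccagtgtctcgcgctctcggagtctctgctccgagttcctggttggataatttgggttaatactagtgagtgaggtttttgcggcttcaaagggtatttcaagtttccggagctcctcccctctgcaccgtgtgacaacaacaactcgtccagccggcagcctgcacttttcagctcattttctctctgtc
LMO7 (chr13:75620184-75620433, plus strand): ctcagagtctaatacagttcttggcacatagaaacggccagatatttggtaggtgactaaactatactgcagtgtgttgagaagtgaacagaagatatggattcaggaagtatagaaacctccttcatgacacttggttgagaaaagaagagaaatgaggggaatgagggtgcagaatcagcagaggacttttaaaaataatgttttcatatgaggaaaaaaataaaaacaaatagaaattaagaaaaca
SLAIN1 (chr13:77697437-77697686, plus strand): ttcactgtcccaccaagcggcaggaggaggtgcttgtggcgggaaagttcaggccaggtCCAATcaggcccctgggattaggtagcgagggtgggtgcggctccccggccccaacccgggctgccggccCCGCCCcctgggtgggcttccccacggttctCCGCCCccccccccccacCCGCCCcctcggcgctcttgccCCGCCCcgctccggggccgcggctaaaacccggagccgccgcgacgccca
POU4F1 (chr13:78603553-78603802, minus strand): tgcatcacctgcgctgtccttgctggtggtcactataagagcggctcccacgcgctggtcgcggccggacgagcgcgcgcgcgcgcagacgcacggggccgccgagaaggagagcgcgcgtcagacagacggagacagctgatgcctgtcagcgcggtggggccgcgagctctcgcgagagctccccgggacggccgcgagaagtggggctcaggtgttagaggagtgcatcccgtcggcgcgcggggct
SPRY2 (chr13:80341127-80341376, minus strand): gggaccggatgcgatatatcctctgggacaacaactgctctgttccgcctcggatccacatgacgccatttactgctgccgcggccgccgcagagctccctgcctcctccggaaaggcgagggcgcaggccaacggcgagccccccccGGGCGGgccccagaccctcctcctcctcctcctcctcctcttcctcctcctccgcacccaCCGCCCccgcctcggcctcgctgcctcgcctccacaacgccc

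The 5 sequences differed widely in base composition, from 35.6% G or C before LMO7 to 74.8% before SLAIN1, with 54.0% before DACH1, 70.4% before SPRY2 and 71.2% before POU4F1. SLAIN1 held 1 CCAAT and 4 GGGCGG matches, SPRY2 held 2 GGGCGG matches, and DACH1, LMO7 and POU4F1 held none of the 3 motifs. Windows of the same length were found for 18 genes of the block and for 11366 genes of the file. CCAAT was found in 8 of the 18 (44.4%), against 35% of all windows. GGGCGG was found in 9 (50%), against 66.9% of all windows, and TATAAA in 2 (11.1%), against 5.66%. The median share of G or C was 60% in the windows of the block, 66.4% in the 199 windows of the other members and 65.2% in all windows. No test was made of these shares. TBC1D4 and OBI1 were among the genes of the block without a window.

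The 18 genes with a window were read from both strands, 7 from the plus and 11 from the minus strand. Their neighbours included 3 head-to-head pairs, whose starts face away from each other. MZT1 and BORA have 293 bases between their starts, DIS3 and PIBF1 have 232, and COMMD6 and UCHL3 have 62. BORA and DIS3 overlap at their far ends. They are on opposite strands, and the strand setting of the counting is not given in the sources used here, so reads of their overlap may be shared.

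The 10 libraries fell on 3 levels in the block. Taking each gene's log2 CPM less its mean in WT of experiments 10/11, the block's median was 0.078 and −0.078 in WT of experiments 10 and 11, and 0.064 and 0.078 in clone A1 of the same experiments. It was 0.89 and 0.97 in WT of experiments 15 and 16. In clone A1 of experiments 15 and 16 it was 1.56 and 1.55, and in clone A2 1.53 and 1.56. The 2 WT libraries of experiments 15/16 therefore stood between the 4 libraries of experiments 10/11 and the 4 KO libraries of experiments 15/16, and the levels did not overlap. The step between the WT libraries was the one by which the block was chosen. The pooled SD of these medians within the 5 groups of 2 libraries was 0.057. As fold values against WT of experiments 10/11, the medians were 1.85 and 1.96 in WT and 2.88 to 2.95 in the 4 KO libraries of experiments 15/16. Bulk RNA averages over the cells of a culture, so a change in every cell and a change in the share of cells that differ cannot be told apart.

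**Figure D1:**
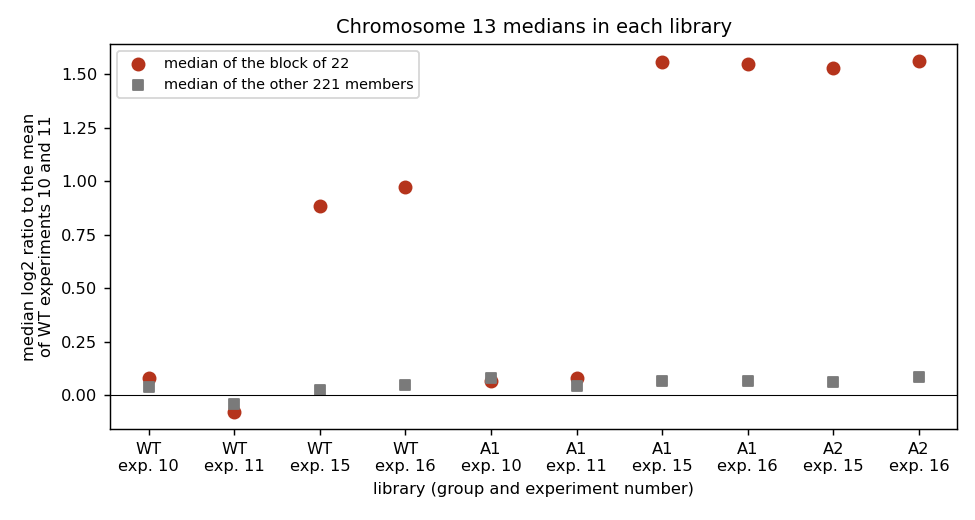
Median log2 ratio (y axis) of the 22 genes of the block (circles) and of the other 221 chromosome 13 members (squares) in each of the 10 libraries (x axis), relative to the mean of WT in experiments 10 and 11. The block sits near 0 in the 4 libraries of experiments 10 and 11, at 0.89 and 0.97 in WT of experiments 15 and 16 and at 1.53 to 1.56 in the 4 KO libraries, while the squares stay between −0.039 and 0.086.

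The other members gave nearly level medians. Their median on the same scale lay between −0.039 and 0.086 in the 10 libraries, with a pooled SD of 0.030 within groups. Summed over the block, the level was 596 and 541 CPM in WT of experiments 10/11 and 597 CPM in both clone A1 libraries of these experiments. It was 1011 and 1074 CPM in WT of experiments 15/16, 1510 and 1576 CPM in clone A1 of these experiments, and 1547 and 1640 CPM in clone A2. The sum over the 221 other members lay between 7842 and 8559 CPM in all 10 libraries.

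Seen by position, the values between the pairs of experiments changed from gene to gene at both ends. PCDH9, a protocadherin and the last member before the block, ends 4.21 Mb before DACH1. It had a log2 fold change of 0.24 (SE 0.12) in WT and 0.59 (SE 0.12) in clone A1 between the pairs of experiments. It was called in clone A1 between the pairs and against WT of experiments 15/16. DACH1, just inside, had 0.88 (SE 0.10) and 1.36 (SE 0.10) in the same comparisons. At the other end SPRY2 had 0.53 (SE 0.10) and 1.15 (SE 0.10). SLITRK5, a neuronal membrane protein and the next member 7.33 Mb beyond SPRY2, had 0.17 (SE 0.09) and 0.12 (SE 0.09). The genes at both edges were also compared with WT of experiments 15/16. PCDH9 had 0.50 (SE 0.12) in clone A1, which was called, and 0.27 (SE 0.12) in clone A2, which was not. DACH1 had 0.57 (SE 0.09) and 0.53 (SE 0.09), so in clone A1 the 2 genes differed by less than in WT between the pairs, and PCDH9 lay above MZT1, LMO7, RBM26 and NDFIP2 of the block. SPRY2 had 0.60 (SE 0.10) in clone A1 and 0.45 (SE 0.10) in clone A2. SLITRK5 had 0.26 (SE 0.09) in clone A1 and 0.31 (SE 0.09), which was called, in clone A2 in experiments 15/16, and 0.31 (SE 0.09) in clone A1 in experiments 10/11. GPC5, a glypican and the member after it, had 0.28 (SE 0.22) in clone A1 and 0.35 (SE 0.21) in clone A2 in experiments 15/16, neither called. Single genes outside the block were also called higher in some of these comparisons. GJB2, a gap junction protein, had 0.49 (SE 0.14) in WT and 1.24 (SE 0.14) in clone A1 between the pairs, both called, and 0.53 (SE 0.13), called, in clone A1 and 0.14 (SE 0.14), not called, in clone A2 against WT of experiments 15/16. PCDH17, a protocadherin, FREM2, an extracellular matrix protein, and HS6ST3, a heparan sulfate sulfotransferase, were called in clone A1 but not in WT between the pairs, at 0.79, 0.72 and 0.64 in clone A1 and 0.35 (SE 0.13), 0.31 (SE 0.11) and 0.19 (SE 0.11) in WT. In clone A1 and clone A2 against WT of experiments 15/16 they had 0.38 (SE 0.13) and 0.47 (SE 0.13), 0.42 (SE 0.11) and 0.35 (SE 0.11), and 0.42 (SE 0.11) and 0.54 (SE 0.11), all called but PCDH17 in clone A1. At a limit of 0.2 in place of 0.3 the run held 23 members, and at 0.5 it held the same number, 22.

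**Figure D2:**
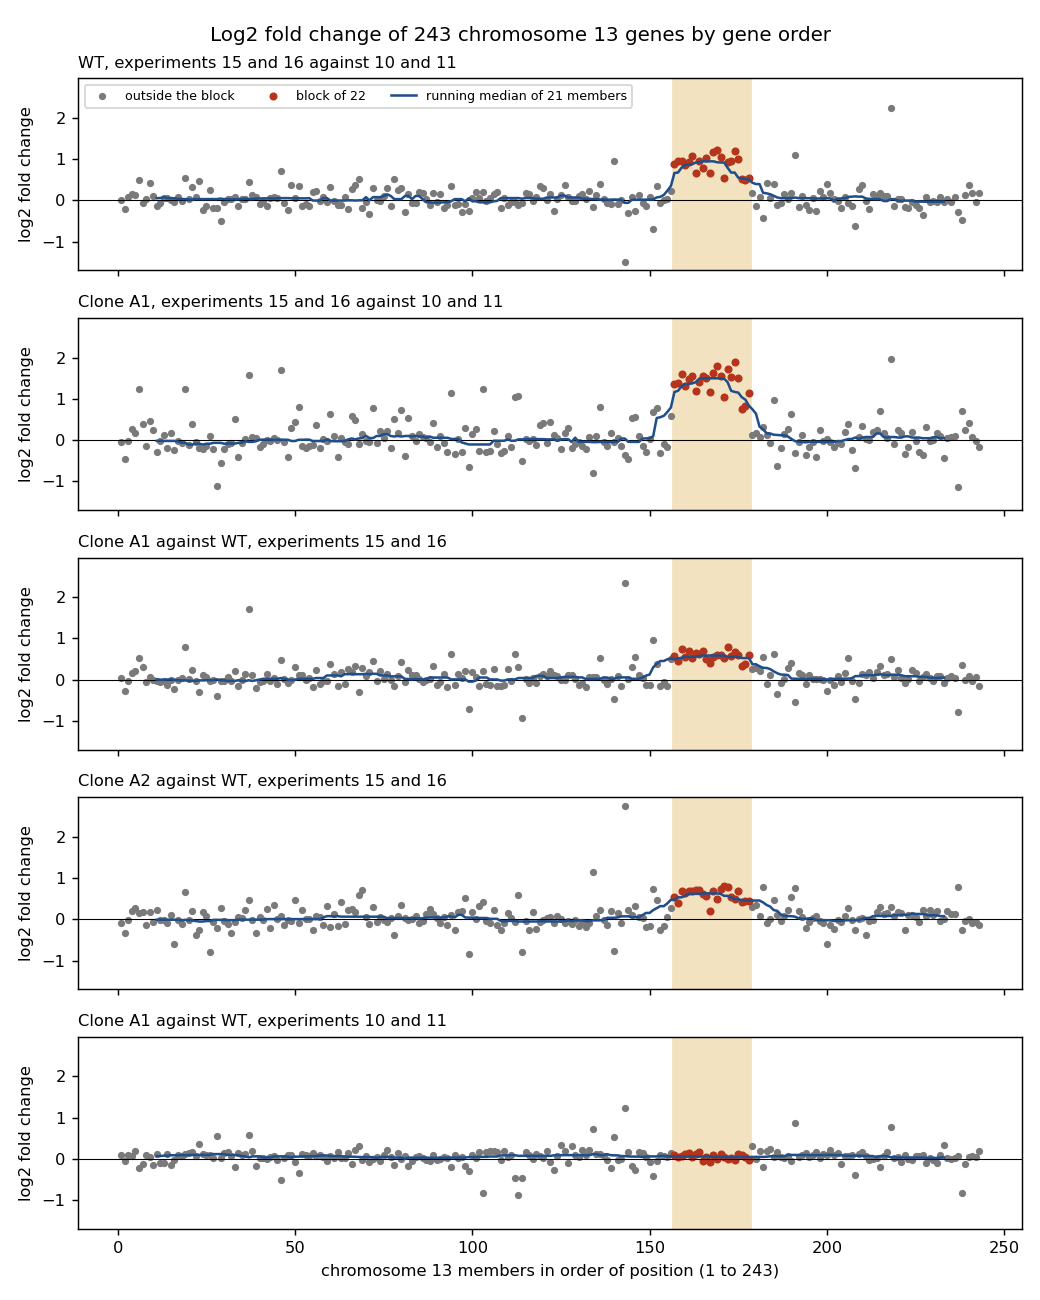
Log2 fold change (y axis) of the 243 chromosome 13 members in order of position (x axis) in 5 comparisons, with the block of 22 genes shaded and in red, other members in grey and a running median over 21 members as a line. In the upper 4 panels the line is highest in the block and falls off over the members on either side, whose windows of 21 members reach into the block, with block medians of 0.94, 1.5, 0.59 and 0.62, and in the lowest panel the block's median is 0.052.

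Windows of 10 Mb with at least 5 members gave the same picture away from the edges of the block. The stretches at its edges, from 60 to 70 Mb and from 80 to 90 Mb, held too few members for a window. The window from 70 to 80 Mb held 21 members, all of the block. Its median log2 fold change was 0.95 in WT and 1.5 in clone A1 between the pairs of experiments, 0.59 in clone A1 and 0.63 in clone A2 against WT of experiments 15/16, and 0.056 in clone A1 against WT of experiments 10/11. The other 7 windows of the chromosome lay between −0.061 and 0.092 for WT between the pairs and between −0.028 and 0.074 for clone A1 between the pairs. Against WT of experiments 15/16 they lay between −0.00042 and 0.12 in clone A1 and between −0.040 and 0.086 in clone A2.

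The medians of the last 3 genes of the block were below those of the first 19, but not every gene followed. The last 3 genes, RBM26, NDFIP2 and SPRY2, had log2 fold changes of 0.51 to 0.53 in WT between the pairs of experiments, against a median of 0.95 for the first 19. In clone A1 between the pairs their median was 0.83 (0.74 to 1.15), against 1.51 (1.04 to 1.90). Against WT of experiments 15/16 it was 0.37 (0.32 to 0.60) in clone A1 and 0.45 (0.41 to 0.46) in clone A2, against 0.59 (0.41 to 0.80) and 0.68 (0.20 to 0.82) for the first 19. SPRY2, the outermost gene, had 0.60 (SE 0.10) in clone A1, which is above the median of the first 19. This division was made after the values were seen. The SD of the fold changes among the 22 genes was 0.22 in WT and 0.29 in clone A1 between the pairs, and 0.12 in clone A1 and 0.15 in clone A2 against WT of experiments 15/16. The median SE of 1 gene was 0.087 to 0.092 in these comparisons.

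WT libraries differed between the pairs of experiments under the same label. This comparison set the block, so that its genes were higher here was fixed by the choice. All 22 genes of the block lay higher in WT of experiments 15/16 than in WT of experiments 10/11, with no overlap between the libraries. The ratios of mean CPM had a median of 1.92 and were lowest for NDFIP2, at 1.42. Over the chromosome 33 members were called higher and 3 lower, where 8.61% of all genes were called higher and 7.74% lower. The block gave 22 of the 33, and 28.7% of all genes lay higher with no overlap of these libraries. Outside the block 11 of 221 members (4.98%) were called higher and 3 (1.36%) lower. The median log2 fold change was 0.94 in the block, 0.035 in the other members and 0.0025 in all genes.

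In clone A1 the step between the pairs of experiments was larger. All 22 genes were higher in experiments 15/16, again with no overlap, and the ratios ran from 1.68 for RBM26 to 3.73 for POU4F1, with a median of 2.82. Over the chromosome 61 members were called higher and 27 lower, where 20.4% of all genes were called higher and 19.0% lower, and 36.4% of all genes lay higher with no overlap. Outside the block 39 members (17.7%) were called higher and 27 (12.2%) lower. The median log2 fold change was 1.5 in the block, 0.011 in the other members and 0.0060 in all genes. Without the clone A1 library of experiment 11 the count over the chromosome fell to 57.

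Against WT of the same experiments, clone A1 was higher in the block in experiments 15/16. All 22 genes were higher with no overlap, by ratios from 1.25 for RBM26 to 1.74 for SLAIN1 and a median of 1.5. Over the chromosome 30 members were called higher and 2 lower, where 3.95% of all genes were called higher and 4.29% lower, and 27.4% of all genes lay higher with no overlap. Outside the block 8 members (3.62%) were called higher and 2 (0.905%) lower. The median log2 fold change was 0.59 in the block, 0.039 in the other members and 0.0031 in all genes. With the WT library of experiment 15 left out, 18 members were called over the chromosome, and with the clone A1 library of experiment 16 left out 21. In the block 17 of the 22 genes were called without the former or without the latter, and 18 without the WT library of experiment 16.

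Clone A2, sequenced only in experiments 15/16, had a block level close to that of clone A1. All 22 genes were higher than in WT of these experiments with no overlap, by ratios from 1.15 for LMO7 to 1.76 for MYCBP2 and a median of 1.54. All of them but LMO7 were called. Over the chromosome 31 members were called higher and 7 lower, where 7.33% of all genes were called higher and 9.07% lower, and 31.0% of all genes lay higher with no overlap. Outside the block 10 members (4.52%) were called higher and 7 (3.17%) lower. The median log2 fold change was 0.62 in the block, 0.020 in the other members and 0.0071 in all genes. Both clones were set against the same 2 WT libraries, so these values are not separate evidence. With the WT library of experiment 15 left out, 21 members were called over the chromosome, and with the clone A2 library of experiment 16 left out 25. In the block 18 genes were called without the former and 19 without the latter. Clone A2 against clone A1 gave a block median of 0.021 (−0.21 to 0.29), with 0 of 22 genes called by edgeR and 2 at an unadjusted p under 0.05, also 2 by DESeq2, where 16.2% and 14.4% of all genes were at an unadjusted p under 0.05 by the same tools. In that comparison 1 member was called higher and 1 lower, where 4.14% of all genes were called. The count of 2 became 8 with the WT library of experiment 10 or of experiment 11 left out, and 1 with the clone A1 library of experiment 15 left out.

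In experiments 10/11 clone A1 and WT lay close together in the block. The median log2 fold change was 0.052, and the 22 genes lay between −0.079 for LMO7 and 0.17 for TBC1D4. Only 3 of the 22 were higher in clone A1 with no overlap, where 19.0% of all genes were. No member was called by edgeR, where 0.194% of all genes were called, and 14 of 243 members had an unadjusted p under 0.05, and 12 by DESeq2, where 10.6% and 9.3% of all genes had one by the same tools. The other 221 members had a median of 0.064, and all genes −0.00044. Without WT of experiment 11 the block's median was −0.018, and without WT of experiment 10 it was 0.14 and 12 members were called.

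The effect of clone A1 in experiments 15/16 was then set against its effect in experiments 10/11. The difference was above 0 for all 22 genes of the block, from 0.22 for RBM26 to 0.81 for SLAIN1, with a median of 0.49, against −0.020 in the other members and −0.0027 in all genes. In this comparison 10 genes of the block were called higher and ABCC4 lower, where 2.5% of all genes were called. Among them were BORA, DIS3, PIBF1, TBC1D4, COMMD6, MYCBP2, SLAIN1, POU4F1 and SPRY2. The count of 11 members became 22 and 23 with the WT library of experiment 10 or 11 left out. It became 3 and 4 with the WT library of experiment 15 or 16 left out, and 4, 4, 5 and 7 with the clone A1 library of experiment 10, 11, 15 or 16 left out. The same libraries chose the chromosome, so these values are a description too.

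The values of single genes are given by role. In the next paragraphs, a pair of values is from experiments 10 and 11 where it comes first and from experiments 15 and 16 where it comes after "then", and clone A2 has experiments 15 and 16 alone. All values are CPM, which are not scaled by gene length and are compared within a gene only.

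The block held transcription factors of several families. DACH1, a corepressor of the retinal determination network (NCBI gene 1602), had 12.2 and 13.4, then 21.9 and 25.3 CPM in WT, 13.6 and 13.7, then 33.1 and 36.8 CPM in clone A1, and 33.3 and 34.97 CPM in clone A2. KLF5, a zinc finger factor of epithelial growth (NCBI gene 688), had 8.72 and 7.55, then 17.3 and 16.9 CPM in WT, 8.19 and 8.57, then 24.7 and 24.8 CPM in clone A1, and 26.9 and 28.5 CPM in clone A2. KLF12, a repressor of the same family, had 25.6 and 21.2, then 34.9 and 39.3 CPM in WT, 24.4 and 26.3, then 56.3 and 59.7 CPM in clone A1, and 55.8 and 64.6 CPM in clone A2. In all 3 genes WT and clone A1 overlapped or nearly met in experiments 10/11, and every KO library of experiments 15/16 lay above both WT libraries. KLF5 had a log2 fold change of 1.07 (SE 0.10) in WT and 1.56 (SE 0.10) in clone A1 between the pairs, and 0.53 (SE 0.09) in clone A1 and 0.70 (SE 0.09) in clone A2 against WT of experiments 15/16. POU4F1, a homeodomain factor of sensory neurons (NCBI gene 5457), had 28.3 and 29.1, then 66.04 and 65.7 CPM in WT, 28.8 and 27.3, then 110.4 and 98.5 CPM in clone A1, and 90.3 and 94.4 CPM in clone A2. Its log2 fold change between the pairs was 1.20 (SE 0.08) in WT and 1.90 (SE 0.08) in clone A1, and against WT of experiments 15/16 it was 0.66 (SE 0.07) in clone A1 and 0.49 (SE 0.07) in clone A2.

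Genes of mitosis and the cytoskeleton lay along the block. MZT1, a small subunit of γ-tubulin ring complexes (NCBI gene 440145), had 31.9 and 27.5, then 54.2 and 61.8 CPM in WT, 31.4 and 29.8, then 75.2 and 83.7 CPM in clone A1, and 73.1 and 78.6 CPM in clone A2. BORA, the activator of Aurora A kinase (NCBI gene 79866), had 7.87 and 8.57, then 15.7 and 16.1 CPM in WT, 9.27 and 8.05, then 27.6 and 25.3 CPM in clone A1, and 25.4 and 25.6 CPM in clone A2. PIBF1, a protein of the centrosome and cilium (NCBI gene 10464), had 14.6 and 12.7, then 26.3 and 25.5 CPM in WT, 14.6 and 15.3, then 43.7 and 40.5 CPM in clone A1, and 41.3 and 42.2 CPM in clone A2. The 3 genes rose in both WT and clone A1 between the pairs, and every KO library of experiments 15/16 lay above both WT libraries of these experiments. SLAIN1, which promotes microtubule growth at plus ends (NCBI gene 122060), had 25.8 and 22.9, then 42.95 and 49.1 CPM in WT, 24.9 and 23.6, then 80.8 and 79.6 CPM in clone A1, and 74.8 and 82.7 CPM in clone A2. It had log2 fold changes of 0.80 (SE 0.08) in clone A1 and 0.77 (SE 0.08) in clone A2 against WT of experiments 15/16, and of −0.01 (SE 0.09) in clone A1 in experiments 10/11. LMO7, a LIM protein that ties actin to adherens junctions (NCBI gene 4008), had 14.3 and 12.9, then 22.1 and 21.3 CPM in WT, 13.02 and 12.7, then 25.2 and 32.5 CPM in clone A1, and 25.03 and 24.7 CPM in clone A2. Its clone A1 libraries of experiments 15 and 16 stood apart from each other, and it was the gene not called in clone A2, at 0.20 (SE 0.11).

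**Figure D3:**
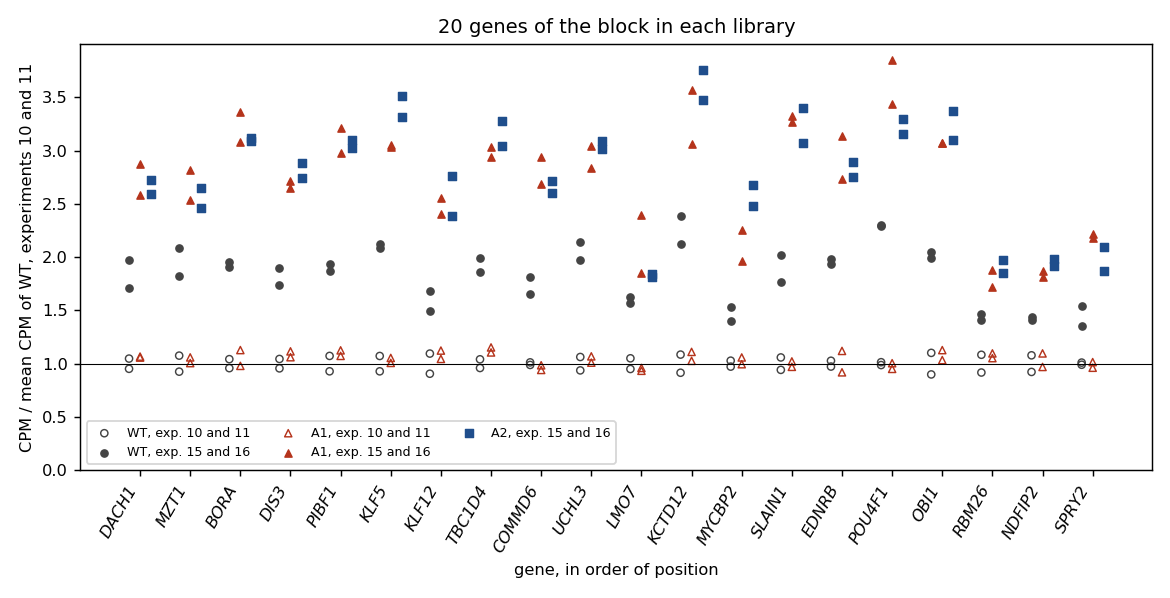
CPM of 20 genes of the block (x axis, in order of position) in each of the 10 libraries, divided by the gene's mean in WT of experiments 10 and 11 (y axis, linear, from 0). Open symbols are experiments 10 and 11, filled symbols experiments 15 and 16, with circles for WT, triangles for clone A1 and squares for clone A2, and the filled circles lie between the open symbols and the filled triangles and squares in every gene plotted.

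Regulators of ubiquitin and protein turnover were also found in the block. UCHL3, a ubiquitin hydrolase (NCBI gene 7347), had 18.00 and 15.9, then 36.3 and 33.4 CPM in WT, 18.1 and 17.1, then 51.5 and 47.98 CPM in clone A1, and 52.3 and 51.03 CPM in clone A2. MYCBP2, a giant E3 ligase (NCBI gene 23077), had 43.7 and 46.2, then 63.04 and 68.8 CPM in WT, 44.7 and 47.6, then 88.3 and 101 CPM in clone A1, and 112 and 121 CPM in clone A2. MYCBP2 rose less than most of the block between the pairs in WT, at 0.55 (SE 0.08), and had the largest value of the block in clone A2 against WT, at 0.82 (SE 0.08), with 0.52 (SE 0.08) in clone A1. OBI1, an E3 ligase of the origin recognition complex, had 24.3 and 19.8, then 43.9 and 45.2 CPM in WT, 22.8 and 24.8, then 67.6 and 67.7 CPM in clone A1, and 68.3 and 74.3 CPM in clone A2. KCTD12, an auxiliary subunit of GABA-B receptors with the BTB fold of ligase adaptors (NCBI gene 115207), had 62.9 and 53.01, then 123 and 138 CPM in WT, 59.5 and 64.3, then 177 and 207 CPM in clone A1, and 201 and 218 CPM in clone A2. It had log2 fold changes of 1.17 (SE 0.10) in WT and 1.63 (SE 0.10) in clone A1 between the pairs.

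Both RNA genes of the block rose, by unequal amounts. DIS3, the catalytic subunit of the RNA exosome (NCBI gene 22894), had 63.5 and 58.1, then 105 and 116 CPM in WT, 67.8 and 64.5, then 161 and 165 CPM in clone A1, and 167 and 175 CPM in clone A2. RBM26, an RNA-binding protein of nuclear RNA decay (NCBI gene 64062), had 69.8 and 59.1, then 90.7 and 94.4 CPM in WT, 70.6 and 67.8, then 111 and 121 CPM in clone A1, and 119 and 127 CPM in clone A2. DIS3 had log2 fold changes of 0.86 (SE 0.07) in WT and 1.30 (SE 0.07) in clone A1 between the pairs, and RBM26 had 0.52 (SE 0.08) and 0.75 (SE 0.08).

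Signalling and membrane genes completed the block. EDNRB, the endothelin receptor type B (NCBI gene 1910), had 3.54 and 3.73, then 7.21 and 7.02 CPM in WT, 3.34 and 4.07, then 9.94 and 11.4 CPM in clone A1, and 10 and 10.5 CPM in clone A2. SPRY2, an inhibitor of receptor tyrosine kinase signalling (NCBI gene 10253), had 9.83 and 9.63, then 13.1 and 14.97 CPM in WT, 9.87 and 9.35, then 21.5 and 21.2 CPM in clone A1, and 20.4 and 18.2 CPM in clone A2. Both had the same order of groups, with WT of experiments 15/16 between the others. TBC1D4, a GTPase-activating protein for Rab proteins in glucose transporter traffic, had 40.3 and 37.1, then 72.1 and 77.3 CPM in WT, 42.8 and 44.6, then 114 and 117 CPM in clone A1, and 118 and 127 CPM in clone A2. NDFIP2, an adaptor of NEDD4-family ligases, had 28.8 and 24.7, then 37.6 and 38.4 CPM in WT, 29.3 and 25.9, then 48.4 and 50.1 CPM in clone A1, and 51.2 and 53.03 CPM in clone A2. COMMD6, a subunit of the Commander complex of endosomal recycling, had 24.5 and 25.1, then 45.1 and 41.01 CPM in WT, 23.4 and 24.5, then 73.1 and 66.7 CPM in clone A1, and 67.3 and 64.6 CPM in clone A2. In these 3 genes the 4 libraries of experiments 10/11 lay below all others.

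Members outside the block are described gene by gene. In the 5 comparisons 75 of the 221 were called in at least 1, 23 in at least 2, 6 in at least 3 and 3 in 4, that is 33.9%, 10.4%, 2.71% and 1.36% of them. Of all genes, 46.6% were called in at least 1, 22.3% in at least 2, 8.65% in at least 3 and 2.99% in at least 4. The 3 were PSPC1, FGF9 and SOX21. PSPC1, a paraspeckle protein near the start of the long arm (NCBI gene 55269, chr13:19671205-19782945), had 63.1 and 62.2, then 53.2 and 54.5 CPM in WT, 62.03 and 59.3, then 45.3 and 43.4 CPM in clone A1, and 43.1 and 42.2 CPM in clone A2. It was lower in experiments 15/16, at −0.22 (SE 0.07) in WT and −0.45 (SE 0.07) in clone A1, and lower than WT of experiments 15/16 in clone A1, at −0.28 (SE 0.07), and clone A2, at −0.34 (SE 0.07). FGF9, a secreted growth factor (NCBI gene 2254, chr13:21671073-21704498), had 2.67 and 2.79, then 3.71 and 4.27 CPM in WT, 2.90 and 3.02, then 7.20 and 6.77 CPM in clone A1, and 6.68 and 6.07 CPM in clone A2. Its values had the same order of groups as the block, with log2 fold changes of 0.55 (SE 0.15) in WT and 1.24 (SE 0.15) in clone A1 between the pairs. SOX21, a repressor of the SOXB family beyond the block (NCBI gene 11166, chr13:94709622-94712545), had 9.98 and 8.26, then 11.9 and 12.1 CPM in WT, 9.64 and 9.03, then 17.8 and 19.1 CPM in clone A1, and 16.1 and 16.99 CPM in clone A2. It had 0.40 (SE 0.11) in WT and 0.98 (SE 0.11) in clone A1 between the pairs, and 0.62 (SE 0.11) in clone A1 and 0.46 (SE 0.11) in clone A2 against WT of experiments 15/16.

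ABCC4, an exporter of cyclic nucleotides and prostaglandins (NCBI gene 10257, chr13:95019835-95301451), went against the direction of the block. It had 48.7 and 42.9, then 42.3 and 42.2 CPM in WT, 52.1 and 51.2, then 31.8 and 34.8 CPM in clone A1, and 44.8 and 46.6 CPM in clone A2. Clone A1 of experiments 15/16 was the lowest of the 5 groups, at −0.34 (SE 0.08) against WT and −0.63 (SE 0.08) against clone A1 of experiments 10/11. Clone A2 did not follow, at 0.12 (SE 0.08) against WT and 0.46 (SE 0.08) against clone A1, where it was the member called higher. BIVM was the member called lower in clone A2 against clone A1, at −0.49 (SE 0.08). It had 32.8 and 30.98, then 30.8 and 32.4 CPM in WT, 32.98 and 33.9, then 33.5 and 34.5 CPM in clone A1, and 24.2 and 24.2 CPM in clone A2, so both clone A2 libraries lay below all 8 others. BIVM is joined to its neighbour ERCC5 in readthrough transcripts, so its reads may be shared. MIPEP, a mitochondrial peptidase, was also lower in clone A2, with 23.7 and 18.9, then 22.5 and 22.4 CPM in WT, 23.3 and 21.6, then 22.1 and 21.7 CPM in clone A1, and 17.3 and 17.4 CPM in clone A2 and a log2 fold change of −0.37 (SE 0.10) against WT.

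**Figure D4:**
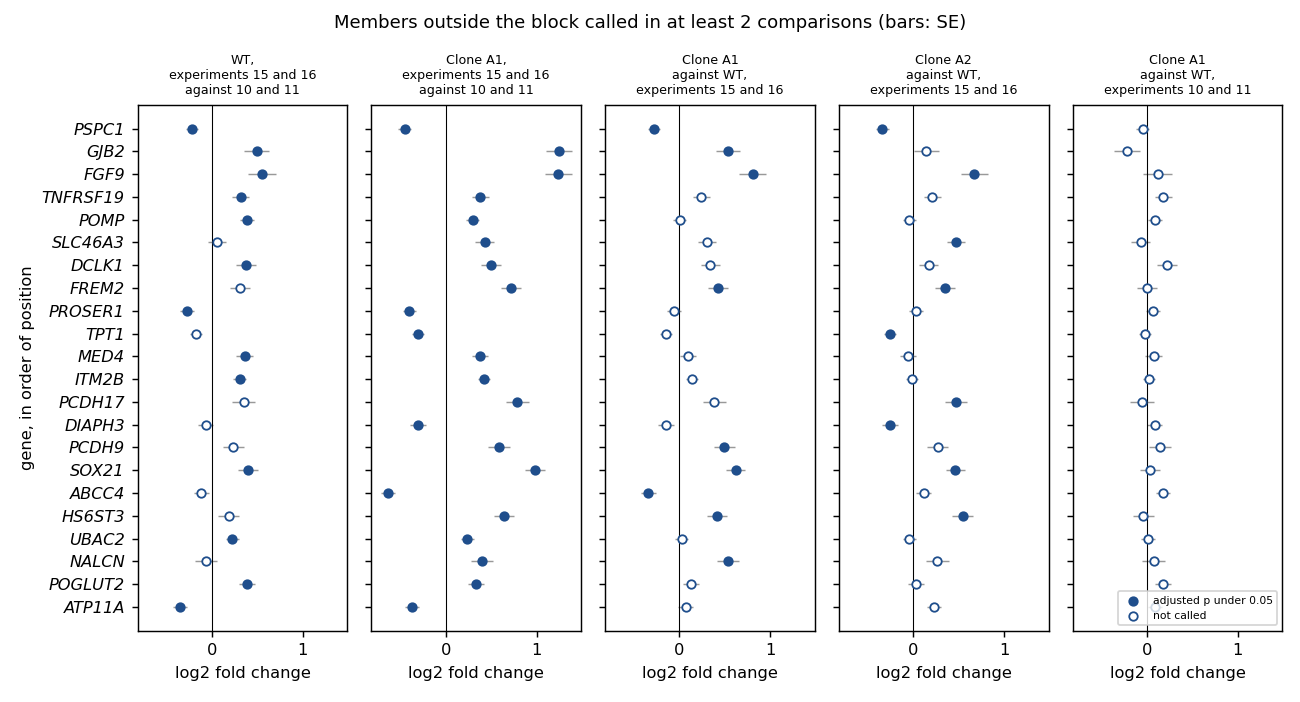
Log2 fold change (x axis, bars show SE) of 22 of the 23 members outside the block that were called in at least 2 of 5 comparisons, in order of position (y axis), with filled points for called values. UTP14C is left out of the plot for its range, and the genes point both ways, with PSPC1 and ABCC4 below 0 and FGF9 and SOX21 above 0 where called, and no filled point in the comparison of experiments 10 and 11.

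The largest fitted changes against WT belonged to a gene whose counts are uncertain. UTP14C (NCBI gene 9724, chr13:52024691-52033600), a retrocopy of UTP14A, had 2.19 and 1.47, then 0.706 and 0.604 CPM in WT, 3.13 and 5.42, then 4.87 and 1.79 CPM in clone A1, and 3.66 and 5.10 CPM in clone A2. Its libraries spread widely within groups, and its log2 fold change was 2.35 (SE 0.52) in clone A1 and 2.75 (SE 0.51) in clone A2 against WT of experiments 15/16. PABPC3, a retrocopy of PABPC1, was called lower in clone A1 between the pairs at −1.13 (SE 0.43), with levels of 0.251 to 0.783 CPM in clone A1. Reads of both genes may be shared with their parent genes. UTP14C also lies within the span of its neighbour ALG11, so its reads may be shared with that gene too. TNFSF13B, the cytokine BAFF, was called higher in clone A1 between the pairs, with 0.0434 and 0.0408, then 0.202 and 0.214 CPM in WT, 0.0622 and 0.0870, then 0.297 and 0.298 CPM in clone A1, and 0.135 and 0.371 CPM in clone A2, which rest on few reads.

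ATP11A and PROSER1 were lower between the pairs in both WT and clone A1. ATP11A, a phospholipid flippase near the end of the chromosome, had 46.98 and 50.9, then 37.4 and 39.2 CPM in WT, 51.7 and 52.1, then 38.3 and 41.9 CPM in clone A1, and 46.3 and 43.6 CPM in clone A2, and a log2 fold change of −0.35 (SE 0.08) in WT and −0.37 (SE 0.08) in clone A1. PROSER1, a proline- and serine-rich nuclear protein, had 57.95 and 55.1, then 44.3 and 48.9 CPM in WT, 60.4 and 57.7, then 45.5 and 44.2 CPM in clone A1, and 49.3 and 45.9 CPM in clone A2, and −0.28 (SE 0.08) in WT and −0.40 (SE 0.08) in clone A1. Against WT of experiments 15/16 both genes had values between −0.06 and 0.23 and were not called.

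Of 30 landmark genes named by their place and role, 25 lay outside the block. Between the pairs of experiments in WT they ranged from −0.21 for ERCC5 to 0.22 for FOXO1 in log2 fold change, with a median of −0.0035 and 0 called, where 8.61% of all genes were called higher and 7.74% lower. In clone A1 between the pairs they ranged from −0.41 for PDS5B to 0.26 for ZMYM2, with 2 called higher and 4 lower, where 20.4% of all genes were called higher and 19.0% lower. Against WT of experiments 15/16, 0 were called in clone A1, where 3.95% of all genes were higher and 4.29% lower, and 3 lower in clone A2, where 9.07% were. The 3 were HMGB1, TPT1 and DIAPH3.

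RB1, the retinoblastoma tumour suppressor (chr13:48303751-48481890), lies proximal to the block. It had 57.5 and 53.5, then 51.97 and 60.6 CPM in WT, 61.3 and 66.2, then 58.6 and 61.9 CPM in clone A1, and 55.3 and 60.1 CPM in clone A2. Its log2 fold changes were 0.02 (SE 0.08) in WT and −0.08 (SE 0.08) in clone A1 between the pairs, 0.10 (SE 0.08) in clone A1 and 0.04 (SE 0.08) in clone A2 against WT of experiments 15/16, and none was called. RNASEH2B, a subunit of the enzyme that removes ribonucleotides from DNA, had 35.3 and 29.7, then 37.6 and 33.5 CPM in WT, 37.1 and 33.3, then 40.4 and 34.4 CPM in clone A1, and 36.96 and 37.6 CPM in clone A2, and its libraries did not follow the 3 levels of the block. FOXO1, a forkhead factor of insulin signalling, had 12.02 and 11.5, then 13.3 and 14.02 CPM in WT, 13.7 and 11.2, then 14.03 and 13.4 CPM in clone A1, and 11.1 and 14.7 CPM in clone A2. LATS2, a kinase of the Hippo pathway, had 16.4 and 19.3, then 15.3 and 18.8 CPM in WT, 17.2 and 16.01, then 14.4 and 18.4 CPM in clone A1, and 17.3 and 16.2 CPM in clone A2. Neither showed the steps of the block, and FOXO1 had 0.14 (SE 0.13) and LATS2 −0.02 (SE 0.13) in clone A1 between the pairs.

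HMGB1, a chromatin protein and alarmin, had 531 and 456, then 564 and 573 CPM in WT, 562 and 536, then 500 and 509 CPM in clone A1, and 469 and 482 CPM in clone A2. Its 4 KO libraries of experiments 15/16 lay below both WT libraries of these experiments, and it was called in clone A2, at −0.26 (SE 0.07), but not in clone A1, at −0.17 (SE 0.07). TPT1, a translationally controlled protein of growth, had 1051 and 1079, then 961 and 928 CPM in WT, 1047 and 1055, then 897 and 803 CPM in clone A1, and 809 and 774 CPM in clone A2, with −0.25 (SE 0.07) in clone A2 against WT and −0.31 (SE 0.07) in clone A1 between the pairs. DIAPH3, a formin of actin assembly, had 37.02 and 36.1, then 33.7 and 35.9 CPM in WT, 40.8 and 36.9, then 30.7 and 32.2 CPM in clone A1, and 27.7 and 30.7 CPM in clone A2. It was lower in clone A2 against WT, at −0.26 (SE 0.08), and in clone A1 between the pairs, at −0.30 (SE 0.08).

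PDS5B, a cohesin regulator, and IPO5, a nuclear import receptor, were called lower in clone A1 between the pairs, at −0.41 (SE 0.12) and −0.37 (SE 0.08). ZMYM2, a zinc finger corepressor, and EFNB2, an ephrin ligand, were called higher there, at 0.26 (SE 0.09) and 0.20 (SE 0.07). Beyond the block, the chaperone DNAJC3 had 0.15 (SE 0.09) in WT and 0.16 (SE 0.09) in clone A1, and the kinase STK24 had 0.06 (SE 0.08) and −0.04 (SE 0.08). Near the end of the chromosome, IRS2, an adaptor of the insulin receptor, had −0.14 (SE 0.08) and −0.10 (SE 0.08), and TFDP1, the partner of E2F factors, had 0.08 (SE 0.07) and 0.09 (SE 0.07). None of these last 4 genes was called in these comparisons, nor were CUL4A, CDK8, ELF1, CKAP2, PCCA, ERCC5, LIG4, ARHGEF7, LAMP1 and GAS6.

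The role lists are given by their members outside the block. The shares of all genes called higher and lower were 3.95% and 4.29% in clone A1 and 7.33% and 9.07% in clone A2 against WT of experiments 15/16, 8.61% and 7.74% in WT between the pairs, and 20.4% and 19.0% in clone A1 between the pairs. In clone A1 and in clone A2 against WT of experiments 15/16, the 16 genes of the cell cycle and mitosis outside the block had medians of −0.018 and −0.040, with 1 called lower in clone A2 and no other called. Both list members inside the block, BORA and MZT1, were called higher in both clones. The 21 genes of transcription and chromatin had medians of −0.021 and −0.054, with 2 called lower in clone A2 and none in clone A1. The 16 genes of RNA processing and translation had medians of −0.011 and −0.053, with 1 called higher in each clone and 1 lower in clone A2. The 6 genes of DNA repair and nucleic acid metabolism had medians of 0.074 and 0.016, the 12 of ubiquitin and protein turnover −0.017 and 0.013, and the 14 of the secretory and endosomal pathway 0.093 and 0.078, with 0 called in these 3 lists in either clone. The 20 receptor and signalling genes had medians of 0.12 and 0.059, with 1 and 2 called higher and none lower. The 15 genes of mitochondria and metabolism had medians of −0.037 and −8.02e-05, with 1 called lower in each clone. In WT between the pairs, 4 of the 20 receptor and signalling genes were called higher, 1 of the 21 transcription genes higher, 1 of the 12 ubiquitin genes higher and 1 lower, and 1 of the 14 secretory genes lower, with 0 called in the other 4 lists. In clone A1 between the pairs, 7 of the 20 receptor and signalling genes were called higher and 3 lower, and 1 and 5 of the 16 cell cycle genes. The counts there were 3 and 2 of the 21 transcription genes, 2 and 3 of the 12 ubiquitin genes, 1 and 4 of the 16 RNA genes, 0 and 1 of the 15 mitochondrial genes, 1 and 1 of the 14 secretory genes, and 0 and 0 of the 6 DNA repair genes. In all genes of the file the median was 0.0031 in clone A1 and 0.0071 in clone A2 against WT of experiments 15/16 and 0.0025 in WT between the pairs.

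As a whole, chromosome 13 showed little of this. Its median log2 fold change was 0.068 in clone A1 and 0.051 in clone A2 against WT of experiments 15/16, 0.064 in clone A1 against WT of experiments 10/11, and 0.055 in WT and 0.044 in clone A1 between the pairs. By size it ranked 5, 7, 3, 7 and 9 among 23 chromosomes in these comparisons. Of 299 windows of 10 Mb with at least 5 genes over the genome, the one from 70 to 80 Mb on chromosome 13 had the largest median by size in WT between the pairs, clone A1 between the pairs, clone A1 and clone A2 against WT of experiments 15/16. It ranked 137 in clone A1 against WT of experiments 10/11. The next windows had 0.45 on chromosome 4 (60 to 70 Mb, 5 genes) for WT between the pairs, 0.72 on chromosome 4 (170 to 180 Mb, 15 genes) for clone A1 between the pairs, −0.29 on chromosome 1 (220 to 230 Mb, 66 genes) for clone A1 and −0.57 on chromosome 22 (50 to 60 Mb, 22 genes) for clone A2 against WT.

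Values of 2 larger stretches stand beside those of the block. The 419 genes of chromosome 4 beyond 20 Mb had medians of 0.40 in WT and 0.50 in clone A1 between the pairs, and of 0.15 in both clones against WT of experiments 15/16. In these 4 comparisons the block was higher too, by more. In clone A1 against WT of experiments 10/11 the median on chromosome 4 was 0.013. The 318 genes of chromosome 22 had −0.49 in clone A2 and 0.010 in clone A1 against WT. The block had 0.62 and 0.59 in the same comparisons of clones A2 and A1, and 0.94 and 1.5 in WT and clone A1 between the pairs. Differences between these stretches were not tested.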

How the data were processed

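Libraries were stranded mRNA. The authors mapped the reads with HISAT2 (GRCh38) and dropped every gene with a count of 0 in some library. The labels' processing notes also name StringTie. The counting program and strand setting are not given in the sources used here. For RNA extraction the labels give Maxwell HT simplyRNA, whereas the study's methods give NucleoSpin. The deposited table gives raw counts of reads for each NCBI gene, not normalized, with a lowest count of 1.

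Identifiers were matched to the NCBI gene table (GRCh38.p14), which gave a position for 13885 of 13920 genes. Counts were fitted in R 4.3.3 with edgeR 4.0.16 (TMM, robust quasi-likelihood test) over 10 libraries in 5 groups, with 7 comparisons and Benjamini-Hochberg adjustment over all genes. Log2 CPM used a prior count of 2. Of the 243 members, 240 had a mean count of at least 10. Their lowest count was 2, and that of the block 161. Counts limit the precision of low genes only. Libraries of the same group were not duplicates, with a chi-square of 6.74 to 25.2 for each degree of freedom. P-values measure the spread between these libraries. Alternatives were RLE, a filter at a mean count of 10, the replicate block, DESeq2 1.42.0, experiments 15 and 16 alone, protein-coding members, other windows and each library left out. The fit was tested on simulated data.

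Members, landmarks and role lists were chosen with earlier results of these data known. The named genes were 30 landmarks, the 3 largest and 3 smallest called changes without overlap in each of 5 comparisons, and up to 3 called against the median. Further genes of the block, SOX21, the genes at its borders, GJB2, PCDH17, FREM2 and HS6ST3 were named after their values were seen. Some genes of the chromosome are not reported here.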

Additional observations from a re-analysis of the deposited data

Results flagged for a closer look

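Of 118 sets of 4 libraries tested (named genes and the 2 medians, in WT and in clone A1), 5 held a library set apart from the other 3. The gap was large for the range of the 4 values, which can be small in CPM. Chance gives about 1 in 20 if all 4 libraries are alike. Each set spans both pairs of experiments, which differ, so this share is only a guide. ZMYM2 had 104.6 CPM in WT of experiment 11, and ABCC4 48.7 CPM in WT of experiment 10. TFDP1 had 129.9 CPM in WT of experiment 10 and 154.3 CPM in clone A1 of experiment 16. ARHGEF7 had 61.9 CPM in clone A1 of experiment 11, close to the 60.62, 60.45 and 60.56 CPM of clone A1 in experiments 10, 15 and 16.

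The effect of clone A1 against WT differed between the pairs of experiments in members named here, by an edgeR interaction term with adjusted p under 0.05. The log2 difference, experiments 15 and 16 less experiments 10 and 11, was 0.66 for BORA, 0.44 for DIS3, 0.57 for PIBF1, 0.45 for TBC1D4, 0.76 for COMMD6, 0.49 for MYCBP2, 0.81 for SLAIN1, 0.70 for POU4F1, 0.62 for SPRY2 and −0.52 for ABCC4. All but ABCC4 belong to the block. These libraries also chose the chromosome.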

How the results depend on the processing

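In every alternative run, all 22 genes of the block stayed above 0 in both clones against WT of experiments 15 and 16 and in clone A1 between the pairs. They also did so in WT between the pairs, but that comparison set the block, so nothing is read from it. The genes of the block called fell to as few as 17 in clone A1 and 18 in clone A2 against WT with 1 library left out. No value changed sign while called. The block and the alternatives without it were set after the data were seen. Limits on low counts touch few members, since 240 of 243 had a mean count of at least 10.

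With experiment number as a replicate block, the members called numbered 49 (from 32) in clone A1 and 59 (from 38) in clone A2 against WT of experiments 15 and 16, 1 (from 0) in clone A1 against WT of experiments 10 and 11, 8 (from 2) in clone A2 against clone A1, and 34 (from 11) for the effect of clone A1 between the pairs. Of all genes, that fit called 17.3%, 26.4%, 2.74%, 8.71% and 8.96% in these comparisons. Deviations of libraries with the same number correlated at 0.084, 0.13, 0.15 and 0.10, all positive. The labels do not say which cultures the numbers came from, so the main fit did not pair the libraries. Whether libraries of the same experiment share variation was not tested.

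Outside the block, 10, 17 and 14 of 221 members were called in clone A1 and clone A2 against WT and in WT between the pairs, and 1 for the effect of clone A1 between the pairs. Of all genes, 3.95%, 7.33% and 8.61% were called higher and 4.29%, 9.07% and 7.74% lower in the first 3 comparisons, and 2.5% were called in the last. The chromosome's median outside the block was 0.020 in clone A2 against WT and 0.011 in clone A1 between the pairs. Experiments 15 and 16 alone gave 6 members in clone A2 against clone A1, and DESeq2 gave 20 for the effect of clone A1 between the pairs.

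With each library left out in turn, the members called ranged from 18 to 42 in clone A1 and 21 to 53 in clone A2 against WT of experiments 15 and 16, 0 to 12 in clone A1 against WT of experiments 10 and 11, 57 to 103 in clone A1 between the pairs, 1 to 8 in clone A2 against clone A1, and 3 to 23 for the effect of clone A1 between the pairs. The chromosome's median ranged from 0.028 to 0.083 in clone A2 against WT, 0.0015 to 0.095 in clone A1 against WT of experiments 10 and 11, 0.0065 to 0.098 in WT between the pairs, and −0.025 to 0.042 for the effect of clone A1 between the pairs. The block's median ranged from −0.018 to 0.14 in clone A1 against WT of experiments 10 and 11, 0.87 to 0.97 in WT and 1.43 to 1.5 in clone A1 between the pairs, −0.043 to 0.046 in clone A2 against clone A1, and 0.41 to 0.58 for the effect of clone A1 between the pairs. The cause of these shifts was not tested.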
